A study of Mus with 15 samples.

Results

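The chromatin regions described here carried a peak of monoubiquitinated histone H2A (H2AK119ub1, termed H2Aub) in all 3 cocaine-treated wild-type (WT) thalamus libraries and in none of the 3 saline-treated WT libraries. They were chosen by the peak lists themselves. Peaks of the 3 WT cocaine lists were merged where they overlapped or touched, and a merged region on chromosomes 1 to 19 was kept if at least 1 base of it was covered in all 3 lists and no peak of any WT saline list overlapped it. This left 472 cocaine-only regions of 43758 merged WT cocaine regions (1.08%). They were 12.2% of the 3864 merged regions with a base covered in all 3 cocaine lists, and the other 3392 of these, which overlapped a saline peak, serve as the comparison set below. Presence in the cocaine lists and absence from the saline lists are therefore the selection and not a result, and no test was made of them.

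H2Aub is placed on chromatin by Polycomb repressive complex 1 (PRC1), through the ubiquitin ligases Ring1 and Rnf2, and is removed by deubiquitinases. In differentiated tissue the mark is best known at silent developmental genes, such as homeobox genes, where it lies in broad domains around gene starts and accompanies repression. Maged1 belongs to the MAGE family of ubiquitin ligase regulators, and the study asked whether it takes part in the H2Aub response to cocaine through the deubiquitinase Usp7.

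H2Aub was measured by ChIPmentation, a chromatin immunoprecipitation in which Tn5 transposase inserts the sequencing adapters on the beads. Each library came from thalami of mice aged 2 to 4 months, 3 to 4 thalami being pooled according to the labels, whereas the study's methods give a lower minimum. All groups carried floxed Maged1. The control groups kept the gene (genotype Maged1 Loxp in the labels, WT here), and the conditional knockout (cKO) groups lost it only in cells expressing Vglut2-Cre. All mice had 3 days of saline and then 5 days of cocaine (20 mg/kg, intraperitoneal) or saline, which gave H2Aub libraries of 3 cocaine and 3 saline WT pools and of 2 cocaine and 3 saline cKO pools. Input chromatin of each group (4 libraries), against which the authors called the peaks, was not used here. Whole thalami hold several cell types, including cells that do not express Vglut2-Cre. In such bulk tissue a mark in fewer cells and less of the mark per cell cannot be told apart. The peak lists hold no expression values, so neither the deletion of Maged1, which lies on chromosome X, nor the tissue could be checked by expression.

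On chromosomes 1 to 19 the WT cocaine lists held 21037, 25972 and 15830 peaks over 17.2, 15.0 and 10.4 Mb. The WT saline lists were shorter on average, with 23681, 8916 and 12072 peaks over 11.1, 5.54 and 8.39 Mb. The cKO cocaine lists held 54201 and 17387 peaks, and the cKO saline lists 79872, 10765 and 7235. The cKO replicates numbered 1 stood apart, with peaks of up to 31.2-fold and 52.6-fold enrichment over input against 5.98-fold to 12.2-fold in the other 9 lists. The lists give no read counts, and the study states only a minimum depth for its samples, so how the libraries differ in depth is not known from these sources. A short list through fewer reads cannot be told apart from a short list through less of the mark.

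The same rule was applied to every choice of 3 of the 6 WT lists against the other 3, to set the count beside the counts that mixed lists give. The choice of the 3 cocaine lists gave the highest of the 20 counts (472). The next was 350, or 9.43% of the regions in all 3 lists, for cocaine replicates 1 and 2 with saline replicate 1. Those were the 3 longest lists, with 70690 peaks together against 62839 for the 3 cocaine lists. The 9 choices of 2 cocaine lists and 1 saline list gave 13 to 350 regions, with a median of 89. The 9 choices of 1 cocaine list and 2 saline lists gave 6 to 130, with a median of 48. The converse of the rule, a base in all 3 saline lists and no cocaine peak, gave 31 regions of 2021 (1.53%). The imbalance between 472 and 31 depended on the saline lists used. Without saline replicate 2 the counts were 534 cocaine-only and 542 saline-only regions, without saline replicate 3 they were 632 and 303, and without saline replicate 1 they were 935 and 124, the saline side then asking for 2 lists instead of 3. The parts of list length and treatment in these counts were not tested.

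With every WT list cut to its 8916 peaks of lowest p, the length of the shortest list, the 3 cocaine lists again gave the highest count. It was 140 of 1920 regions in all 3 lists (7.29%), followed by 94 (5.55%) for cocaine replicates 1 and 3 with saline replicate 3. The mixed choices then gave 28 to 94 regions with 2 cocaine lists (median 46) and 14 to 51 with 1 cocaine list (median 23), and the 3 saline lists gave 37. Of the 472 regions, 64 overlapped 1 of these 140, and 76 of the 140 overlapped none of the 472. Both the count and the identity of the regions thus changed when the lists were cut to equal length.

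**Figure D1:**
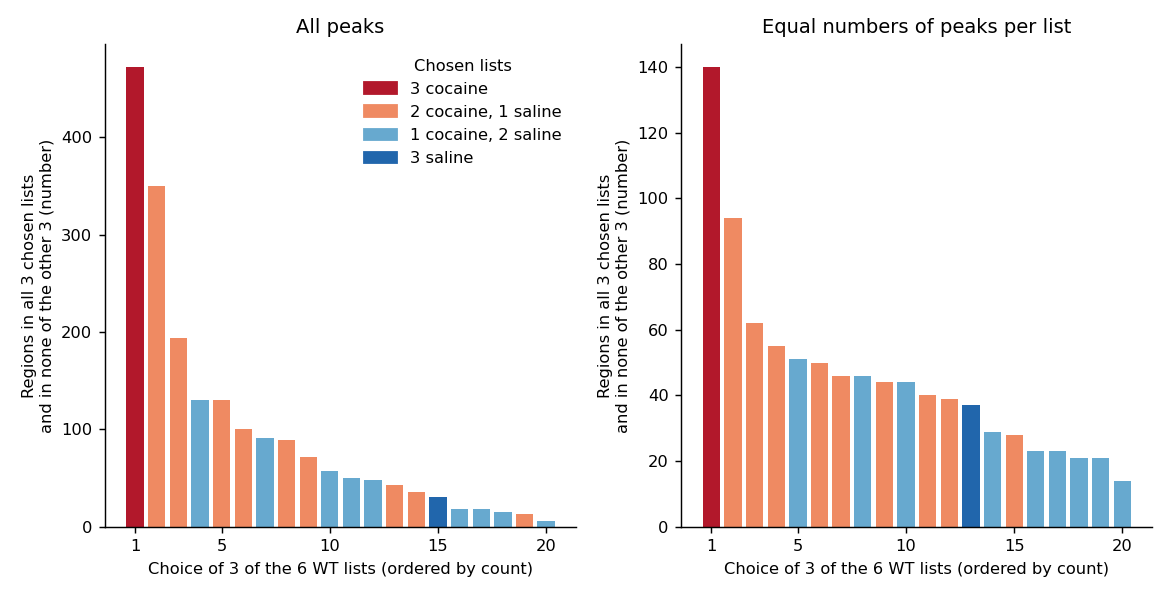
Number of regions with a base covered in all 3 chosen WT lists and no overlapping peak in the other 3, for the 20 choices of 3 lists ordered by count, with all peaks (left) and with 8916 peaks per list (right). Colour gives how many of the chosen lists were cocaine lists, and the choice of 3 cocaine lists stands first in both plots, with 472 and 140 regions, ahead of 350 and 94.

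The cocaine-only regions were narrow beside the comparison regions, but not beside all merged WT cocaine regions, whose median width was 332 bp. Widths of the cocaine-only regions ran from 224 to 4577 bp with a median of 885 bp. The 3392 comparison regions had a median of 1963 bp and reached 106763 bp. The stretch covered in all 3 lists had a median of 140.5 bp against 491 bp. Only 23 of the 472 (4.87%) had 500 or more such bases, against 49.3% of the comparison regions. At the other extreme, 20 had 10 or fewer. Together they spanned 454 kb, of which 85.7 kb was covered in all 3 lists. The demand for no saline peak favours narrow regions, which have less room to meet one. The demand for a base in all 3 lists leans to wide regions. The part of each in these widths was not tested.

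**Figure D2:**
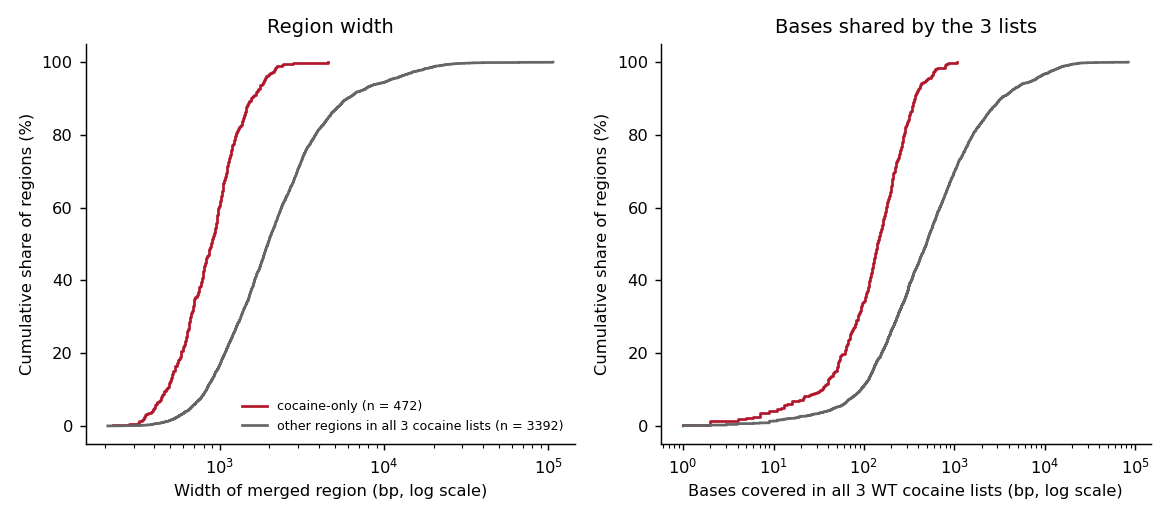
Cumulative share of regions by width (left) and by number of bases covered in all 3 WT cocaine lists (right), on log axes in bp, for the 472 cocaine-only regions and the 3392 other regions in all 3 lists. The curve of the cocaine-only regions lies to the left in both plots, with medians of 885 against 1963 bp and 140.5 against 491 bp.

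Enrichment was near that of a typical peak of each list, whose median folds were 3.10, 3.49 and 3.58 in cocaine replicates 1, 2 and 3. The highest fold over input of a peak in a region had medians of 3.10, 3.57 and 3.55 in these lists, against 3.30, 3.82 and 3.77 in the comparison regions. The mean over the 3 lists ran from 2.86 to 4.28. In 300 regions (63.6%) every cocaine list had a peak with q at most 0.05, against 89.5% of the comparison regions. The lists run up to a q of almost 0.1, so the remaining regions rest on at least 1 weaker peak. Fold and q were each the best value among all peaks of a list in the region. The wider comparison regions have room for more peaks, and the part of this was not tested.

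Most cocaine-only regions lay close to saline peaks that they did not touch. The gap to the nearest peak of any WT saline list had a median of 1292 bp, with quartiles at 492.5 and 4565.25 bp. It was within 1 kb in 205 regions (43.4%) and within 5 kb in 361 (76.5%). Among the 31567 other merged WT cocaine regions without a saline overlap, which were not in all 3 lists, 24.9% had a saline peak within 1 kb and 55.6% within 5 kb.

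Members at the edge of the rule show how little separated them from the comparison set. A region in Smo, the transducer of hedgehog signalling, was 8 bp from a saline peak, and regions in the calcium-binding protein gene Necab2 and the retinoid X receptor gene Rxra were 11 and 12 bp away. Those in the spectrin gene Sptbn5 and 83.0 kb from Kif26a were at 25 and 34 bp. Just outside, the region in the small GTPase gene Rhof overlapped a saline peak by 1 bp. Regions 79.3 kb from 1700021F07Rik, in Tdh, 7.76 kb from Btrc and in the homeobox gene Meis2 overlapped by 2, 4, 6 and 7 bp. Mean folds were 3.18 to 3.72 in the 5 inside and 3.40 to 3.66 in the 5 outside.

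The regions were spread over all 19 autosomes. Chromosome 4 held 51 and chromosome 18 held 6. Their share among the regions in all 3 cocaine lists ran from 6.16% on chromosome 17 to 19.2% on chromosome 16. Few lay together, with 11 neighbouring pairs within 5 kb, 65 within 100 kb and a median distance of 1310 kb between neighbours.

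With all peaks, cocaine-only regions were less often at gene ends than the comparison regions. The gene table used has no strand, so a window reaching 5 kb out of the gene and 2 kb into it was set at either end of every gene, and 228 regions (48.3%) overlapped such a window. The share was 72.0% of the comparison regions and 40.2% of all merged WT cocaine regions. With protein-coding genes alone the shares were 32.4, 59.3 and 24.8%. With other choices of peaks the rule chose partly or mostly other regions. With q at most 0.01 it chose 104 regions, of which 96 overlapped none of the 472. Of these 104, 73.1% met a window, against 87.3% of 867 comparison regions. With equal numbers of peaks per list it chose 140, of which 76 overlapped none of the 472. Of these 140, 61.4% met a window, against 80.6% of 1780. Bodies of protein-coding genes held 248 of the 472 regions (52.5%), against 69.6% of the comparison regions. Outside any gene and window lay 101 (21.4%), against 11.1%. The midpoint was under 1 kb from the end of a protein-coding gene in 66 regions (14.0%), against 28.8%, and over 50 kb away in 117 (24.8%), against 13.7%. A wide region reaches a window more easily, and width was not held equal in these shares.

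The regions in all 3 cocaine lists formed a graded series by the number of WT saline lists that also had a peak there. With 0, 1, 2 and 3 saline lists there were 472, 685, 879 and 1828 regions. Median width went from 885 to 1171, 1500 and 2999 bp, and the median mean fold from 3.43 to 3.47, 3.53 and 3.78. Gene-end windows were met by 48.3, 56.2, 66.6 and 80.5%. The cocaine-only regions were thus the low end of this order in each measure, next to the regions with a peak in 1 saline list. These medians and shares are descriptions, since the same lists chose the classes.

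The question for the cKO lists, which the rule did not use, was how often they held a peak at these regions. In cKO cocaine replicates 1 and 2, 211 (44.7%, Wilson 95% interval 40.3 to 49.2) and 170 (36.0%, 31.8 to 40.4) of the 472 had one. Over all 43758 merged WT cocaine regions these shares were 22.5 and 17.8%. In cKO saline replicates 1, 2 and 3, 214 (45.3%, 40.9 to 49.8), 110 (23.3%, 19.7 to 27.3) and 45 (9.53%, 7.20 to 12.5) had a peak, against 22.1, 11.8 and 6.85% of all merged regions. The intervals cover counting error only. All merged regions had a median width of 332 bp against 885 bp in the cocaine-only regions, and most had no base in all 3 cocaine lists. The part of this in the higher shares was not tested. The order of the lists was that of their length among cKO saline libraries, and the cKO cocaine and cKO saline shares overlapped.

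The cKO cocaine lists had a mean share of 40.4% ± 6.14 (SD, n = 2) and the cKO saline lists one of 26.1% ± 18.1 (SD, n = 3), a difference of 14.3 percentage points ± 11.3 (SE). It was within the spread between libraries (two-sided exact permutation test, p = 0.5, smallest possible 0.1, adjusted over 3 tests 0.5). Without the cKO replicates numbered 1, the 1 remaining cKO cocaine list had a share 19.6 points above the mean of the other 2 cKO saline lists, a value given with no test. Without cKO saline replicate 1 the difference was 23.9 points, and without cKO saline replicate 3 it was 6.04. With equal numbers of peaks per list (8916 in WT, 7235 in cKO) the direction turned, to -3.57 points (exact permutation p = 0.8). In that setting the cKO replicates numbered 1 held peaks at only 0.714% (cocaine) and 5.71% (saline) of the 140 regions, whereas cKO cocaine replicate 2 and cKO saline replicates 2 and 3 held them at 27.9, 25.7 and 22.1%.

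Each cKO list had far fewer of the cocaine-only regions than of the comparison regions. The comparison shares were 84.3 and 80.7% in cKO cocaine and 81.0, 66.2 and 51.4% in cKO saline, in the order above. The mean over the 5 lists was 31.8% ± 15.3 (SD, n = 5) for the cocaine-only regions and 72.7% ± 13.8 (SD, n = 5) for the comparison regions. The difference of -40.9 points ± 1.56 (SE) had the same sign in 5 of 5 lists (exact sign-flip permutation test, two-sided, p = 0.063, the smallest possible, adjusted p = 0.188 over 3 tests). It did not pass 0.05, which this design cannot reach. The sets were parted by peaks in other lists of the same mark. The test cannot separate them from that selection, so nothing is read from its p. The rule that parted the sets by WT saline peaks also parted them by width and fold (median width 885 against 1963 bp, and median mean fold 3.43 against 3.47 to 3.78 in the classes with 1 to 3 saline lists), and the part of the selection in this difference was not tested. When both sets were limited to regions under 1 kb the difference was -18.3 points. That limit also changes fold and the mix of saline-list classes, and the part of each was not tested. Without the cKO replicates numbered 1 it was -43.1 points.

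The shares were also taken within classes of similar width, which keep the selection by WT saline peaks. In the 229 cocaine-only regions of 500 to 1000 bp the shares were 38.9 and 33.2% in cKO cocaine and 37.6, 17.9 and 7.86% in cKO saline. Comparison regions of that width (518) had 60.6, 52.9, 57.7, 35.1 and 18.9% in the same order. Of the 171 cocaine-only regions from 1000 up to 2000 bp, 56.1, 42.7, 56.1, 33.3 and 13.5% had a peak, against 79.8, 73.2, 72.9, 51.9 and 32.0% of 1164 comparison regions.

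**Figure D3:**
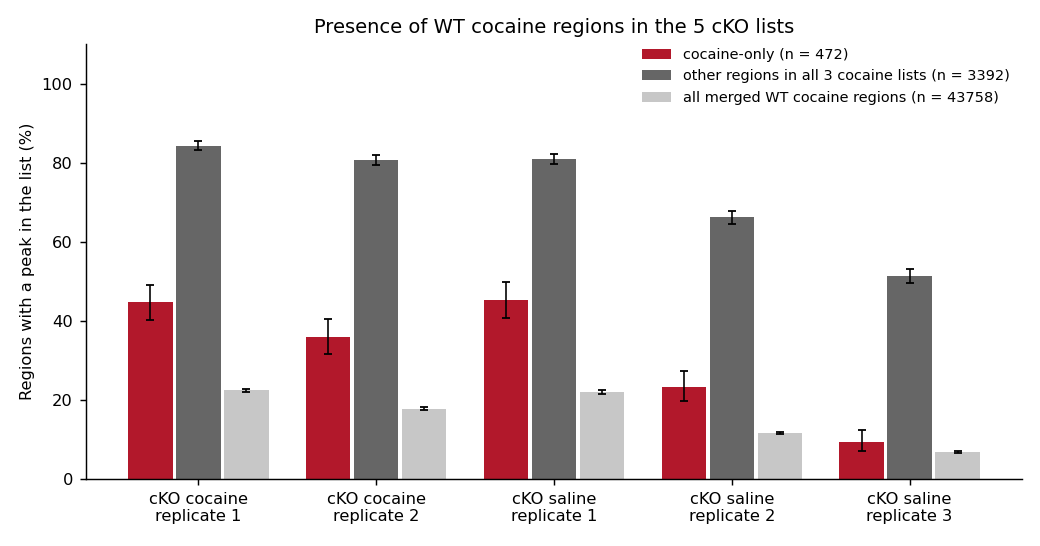
Share of regions (%) with a peak in each of the 5 cKO lists, for the cocaine-only regions, the other regions in all 3 WT cocaine lists and all merged WT cocaine regions. Error bars are Wilson 95% intervals for counting error, and in every list the cocaine-only regions (9.53 to 45.3%) lie below the comparison regions (51.4 to 84.3%) and above all merged regions (6.85 to 22.5%).

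The ratio of the members' share to the comparison share was also taken within each list. Its log2 was -0.92 and -1.16 in cKO cocaine and -0.84, -1.51 and -2.43 in cKO saline. Over the 5 lists these ratios had the same order as the number of peaks, and the part of list length was not tested. The means were -1.04 ± 0.176 (SD, n = 2) and -1.59 ± 0.80 (SD, n = 3), a difference in log2 ratio of 0.55 ± 0.478 (SE, exact permutation p = 0.5, adjusted p = 0.5 over 3 tests, smallest possible p = 0.1). cKO saline replicate 3, the shortest list, had the lowest ratio, and without it the difference was 0.13. Without cKO saline replicate 1 it was 0.93, and with equal numbers of peaks it was -0.79.

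Presence also followed the number of WT saline lists in every cKO list. In cKO cocaine replicate 2 the share went from 36.0% with 0 saline lists to 56.5, 71.8 and 94.1% with 1, 2 and 3. In cKO saline replicate 2 it went from 23.3 to 35.6, 51.4 and 84.7%, and in cKO saline replicate 3 from 9.53 to 20.4, 31.7 and 72.4%. The replicates numbered 1 had the same order, from 44.7 to 94.5% in cKO cocaine and from 45.3 to 92.7% in cKO saline. Width rose along the same classes, and its part was not tested. The 31 saline-only regions of the converse rule, with a median width of 500 bp, had a peak at 13 and 10 regions in the cKO cocaine lists (41.9 and 32.3%) and at 12, 10 and 3 in the cKO saline lists (38.7, 32.3 and 9.68%). Those shares were not tested against the shares of the cocaine-only regions.

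**Figure D4:**
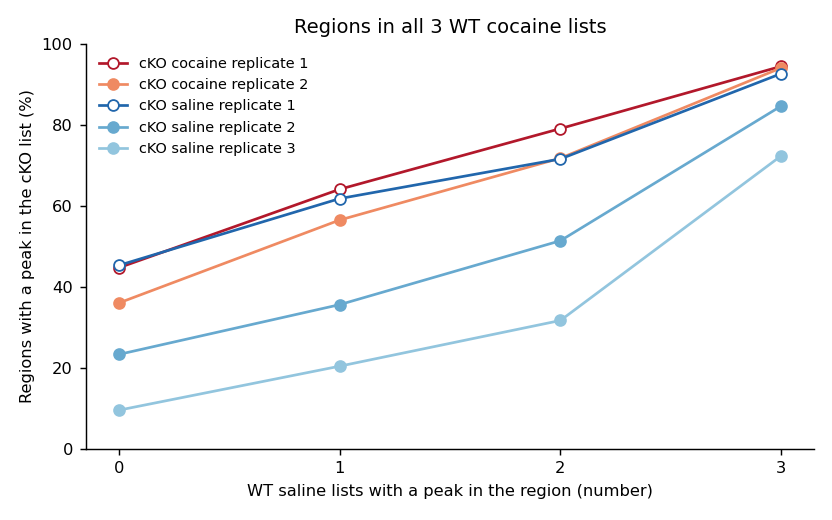
Share of regions in all 3 WT cocaine lists (%) that had a peak in each of the 5 cKO lists, by the number of WT saline lists with a peak in the region. All 5 lines rise from left to right, for example from 36.0 to 94.1% in cKO cocaine replicate 2, and the cocaine-only regions are the leftmost points.

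Combinations of cKO lists divided the 472 regions further. A peak in at least 1 cKO list was found at 353 regions (74.8%). Over all merged regions 39.7% had at least 1, and of the comparison regions 3.33% had none. For 55 regions (11.7%) both cKO replicates numbered 1 and no other cKO list had a peak, against 4.98% of the comparison regions and 4.77% of all merged regions. All 5 cKO lists had a peak at 10 regions (2.12%), against 39.2% of the comparison regions and 3.34% of all merged regions. The pattern of the WT lists, both cKO cocaine lists and no cKO saline list, was seen at 22 regions (4.66%, 3.10 to 6.96), against 2.3% of the comparison regions and 1.34% of all merged regions. The converse, all 3 cKO saline lists and no cKO cocaine list, was seen at 0 of 472, which allows a share of up to 0.807% (upper Wilson bound), with 0.0457% of all merged regions. The converse needs a peak in 3 cKO lists and the former in 2, so the counts of 22 and 0 are not like for like. Without the replicates numbered 1, 90 regions (19.1%) had a peak in cKO cocaine replicate 2 and in neither cKO saline replicate 2 nor 3, and 57 (12.1%) had the opposite. Of the comparison regions 13.6 and 7.40% did, and of all merged regions 8.77 and 5.47%.

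The regions with the most bases covered in all 3 cocaine lists were in or near genes of varied function. The first, at chr17:35567826-35570023 (mm10) in 2300002M23Rik, was 2198 bp wide with 1079 bp in all 3 lists. Its folds were 3.19, 3.71 and 3.75 in cocaine replicates 1, 2 and 3. No saline list reached it, although the nearest saline peak was 85 bp away, and both cKO cocaine lists and cKO saline replicates 1 and 2 had a peak.

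Camta1, a calmodulin-binding transcription activator, held a region at chr4:151177177-151179154 with 859 bp in all 3 lists and folds of 3.20, 3.47 and 3.44. The gap to the nearest saline peak was 659 bp, and cKO cocaine replicate 2 and cKO saline replicates 1 and 2 had a peak. The region 3.37 kb from Actrt2, an actin-related gene, at chr4:154671242-154672282, had 821 of its 1041 bp in all 3 lists. Its folds were 3.32, 3.65 and 3.69, with no peak in any saline or cKO list. Saline peaks were present 1832 bp away.

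A region 7.41 kb from Mdga1, which encodes a membrane-anchored protein of synapses, lay at chr17:29819447-29820542, with 807 bp in all 3 lists and the nearest saline peak 17671 bp away. It had folds of 3.14, 3.71 and 3.56, and every cKO list except cKO saline replicate 1 had a peak. Matn3, a matrilin of cartilage matrix, held a region at chr12:8947715-8949470 that was 56020 bp from the nearest saline peak. Its folds were 3.27, 3.78 and 3.60, and cKO cocaine replicate 2 and cKO saline replicate 1 had a peak. In the other 3, in Jakmip3, 57.4 kb from the netrin receptor gene Unc5a and 352 kb from Zdhhc25, the bases in all 3 lists were 793, 780 and 643.

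The 8 regions of highest mean fold were shorter, at 437 to 1308 bp. Tsc22d2 led, at chr3:58415715-58416400, with folds of 3.77, 3.69 and 5.39 and only 52 bp in all 3 lists. cKO cocaine replicates 1 and 2 and cKO saline replicate 1 had a peak there, at 3.95-fold, 4.06-fold and 3.28-fold. Dock5, a guanine nucleotide exchange factor, followed with a mean fold of 4.27. Ebf2, a transcription factor of neuronal development, held a region at chr14:67344479-67345786 with folds of 3.49, 3.62 and 4.95 and a saline peak at 134 bp. No cKO list had a peak there. The region beside Ntn4, a netrin, had a mean fold of 4.00, and those of Pax9, Ttll6 and at 404 kb from Rps24 and 32.4 kb from Bace2 had means of 3.98 or 3.99. In Tsc22d2, Ebf2 and Pax9 it was cocaine replicate 3 that raised the mean, with 5.39, 4.95 and 4.74 against at most 3.77 in the other 2 lists.

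Among the 22 regions with peaks in both cKO cocaine lists and no cKO saline list, the 5 with the most bases in all 3 WT lists were 41.7 kb from Parp11, in Sema5b, in Adcy9, in Sema4c and 8.32 kb from Trim56. Adcy9, an adenylyl cyclase, held its region at chr16:4418411-4419223, with folds of 3.41, 3.61 and 3.56 in WT cocaine and 3.49 and 3.94 in cKO cocaine. The nearest WT saline peak was 68441 bp away. A peak of cKO saline replicate 1 lay just beyond the region's edge. Sema5b and Sema4c encode semaphorins, guidance proteins of axons. Their folds were 2.91, 3.47 and 3.41, and 2.93, 3.28 and 3.29, in WT cocaine. In cKO cocaine they were 3.18 and 3.09 for Sema5b and 3.78 and 3.53 for Sema4c.

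Among the 10 regions with a peak in all 5 cKO lists, those with the most bases in all 3 WT lists included regions in Agap2, 36.2 kb from the homeobox gene Uncx, in Necab2 and 31.0 kb from Actn1. Agap2 encodes a GTPase-activating protein of neurons, and its region at chr10:127079663-127081080 had folds of 3.44, 4.00 and 3.82 in WT cocaine. The cKO folds were higher, at 5.33 and 4.67 in cKO cocaine and 5.67, 4.32 and 4.23 in cKO saline. The region in Necab2 was at 14.2-fold and 7.54-fold in the cKO replicates numbered 1 and at 3.24-fold to 3.95-fold in the other 3 lists. MACS2 computed these folds library by library, and they are given without rescaling.

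**Figure D5:**
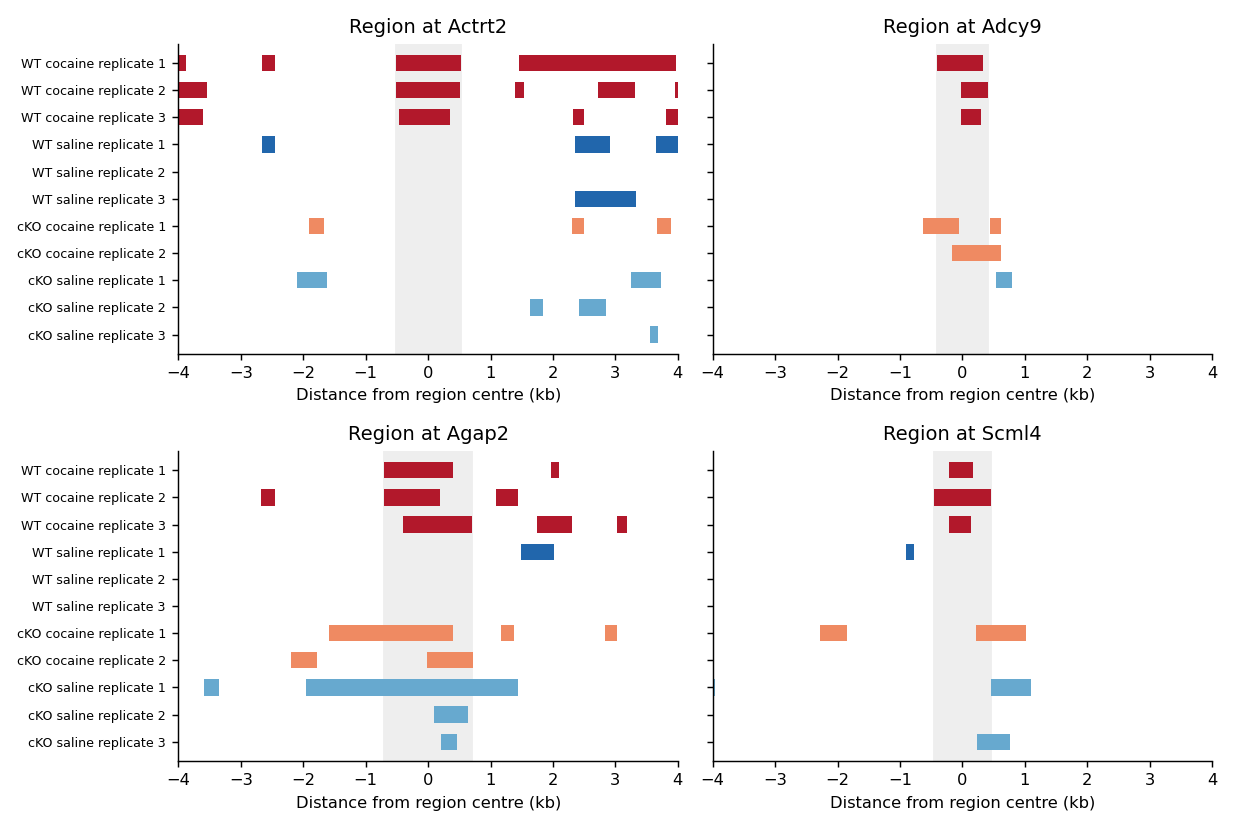
Peaks of the 11 lists within 4 kb of the centre of the cocaine-only regions at Actrt2, Adcy9, Agap2 and Scml4 (distance in kb), with a row for each library and the region in grey. In each map the 3 WT cocaine lists and no WT saline list have a peak in the grey band, WT saline peaks lie within the plotted window in all but Adcy9, and the number of cKO lists with a peak in the band goes from 0 at Actrt2 to 5 at Agap2.

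A cocaine-only region lay in, or within 5 kb of, 310 of 20665 protein-coding genes on these chromosomes (1.50%), and a comparison region at 2280 (11.0%). Of the 310 genes, 137 (44.2%) also had a comparison region. The genes were long, with a median of 41.0 kb against 17.5 kb for all protein-coding genes and 21.8 kb for genes with a comparison region. The share of genes with a cocaine-only region went from 0.911% of those under 20 kb to 1.44, 2.03, 3.80 and 4.02% in the classes bounded at 50, 100 and 200 kb. Members of gene lists with long genes thus have more room to hold one, and length was not held equal in the list shares below.

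Most of the 310 genes had 1 region, 16 had 2 and 2 had 3. Prdm16, a zinc-finger regulator of transcription, had 3, beside 31 comparison regions along its 321 kb, and Gse1 had 3 beside 8 along 353 kb. Of genes with 2, Camta1, Rxra and Abr, a regulator of small GTPases, also held 2, 1 and 4 comparison regions. The atypical protein kinase C gene Prkcz and Rcc2 held none. In Prkcz both regions were at a gene end, at chr4:155359627-155360518 and chr4:155361493-155362181. The folds in WT cocaine were 3.09, 3.47 and 3.70, and 3.20, 3.92 and 3.77. Both cKO cocaine lists and cKO saline replicate 1 had a peak at both, the latter at 10.3-fold and 4.55-fold. cKO saline replicate 3 had a peak at the first, at 4.34-fold.

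Of 33 autosomal genes of PRC1 and of the enzymes that add or remove H2A ubiquitin, 2 (6.06%) had a cocaine-only region, and 9 (27.3%) had a comparison region. Of 10 genes of PRC2, the complex that methylates histone H3, 0 had one and 1 had a comparison region. Scml4, a Polycomb group protein of the sex comb on midleg family, held its region inside the gene at chr10:42940284-42941197, 914 bp wide, 20.0 kb from the nearer gene end. WT cocaine folds were 2.98, 3.49 and 3.56, and 353 bp were covered in all 3 lists. The nearest saline peak was 321 bp away. cKO cocaine replicate 1 and cKO saline replicate 3 had a peak, at 4.39-fold and 3.87-fold. Cbx7, a chromobox subunit of PRC1, had a region with folds of 3.24, 3.38 and 3.31, of which only 4 bp were covered in all 3 lists. Of 4 autosomal genes picked here from those the study names (Usp7, C1ql3, Hopx and Scml4), Scml4 had a cocaine-only region and the other 3 had none. None of the 4 had a comparison region. The study named Scml4, Hopx and C1ql3 for promoter H2Aub with lowered expression, and kept peaks shared by at least 2 replicates. The rule here asks for all 3 lists and no saline peak, and the Scml4 region lay outside the gene-end windows. Presence here is thus not like for like with the study's call. The study named those genes with these samples in hand, so this is no independent evidence.

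Homeobox and other patterning factors, the best known carriers of H2Aub in adult tissue, all had comparison regions (67 of 67), whereas 5 of 67 (7.46%) also had a cocaine-only region. These were the LIM homeobox gene Lhx4, the secreted morphogen gene Bmp7, the paired-box genes Pax7 and Pax9 and the zinc-finger gene Gata4. Pax7 had the longest shared stretch, 586 bp, at chr4:139806327-139808081, with folds of 3.14, 3.79 and 3.46 in WT cocaine. Both cKO cocaine lists (4.23-fold and 3.00-fold) and cKO saline replicate 1 (5.21-fold) had a peak. The Pax9 region, at chr12:56702320-56702756, had folds of 3.68, 3.54 and 4.74 and no cKO peak, and neither did that of Bmp7. Lhx4 had a peak in cKO cocaine replicate 2 and cKO saline replicates 1 and 2, and Gata4 in cKO cocaine replicate 2. Of 16 thalamic transcription factors, Prox1 had a cocaine-only region (6.25%) and 9 (56.2%) had a comparison region. The Prox1 region lay 0.546 kb outside the gene at chr1:190171374-190172409, with folds of 3.07, 3.83 and 3.54, and every cKO list except cKO saline replicate 3 had a peak.

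Among 40 voltage-gated ion channel genes, whose median length was 186 kb, 3 (7.50%) had a cocaine-only region and 12 (30.0%) a comparison region. Those of the calcium channel genes Cacna1a and Cacna1i had folds of 3.00, 4.03 and 3.23, and of 3.03, 3.55 and 3.32, and of the cKO lists only cKO saline replicate 1 had a peak, at Cacna1i. Of 35 glutamate and GABA receptor genes, the kainate receptor gene Grik5 and the NMDA receptor gene Grin2c (5.71%) had a region, and 7 (20.0%) had a comparison region. That of Grik5 had folds of 2.86, 3.43 and 3.60, and both replicates numbered 1 of the cKO groups and no other cKO list had a peak. The region assigned to Grin2c overlapped the neighbouring gene Fdxr and had folds of 2.71, 3.33 and 3.76.

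Of 32 genes of synaptic adhesion and organization, the postsynaptic scaffold gene Dlgap2 and the cerebellin gene Cbln1 (6.25%) had a region, and 10 (31.2%) had a comparison region. Cbln1 had folds of 2.87, 4.01 and 3.43, at 2.16 kb from the gene, with no peak in any cKO list and a saline peak at 190 bp. Dlgap2 had a peak in cKO cocaine replicate 2 alone among the cKO lists. Of 41 axon guidance genes, Ntn1, Sema5b and Slit1 (7.32%) had regions, and 17 (41.5%) had comparison regions. Ntn1, a netrin, had folds of 3.30, 3.43 and 4.15 in WT cocaine, and of the cKO lists both cKO cocaine lists had a peak (4.21-fold and 3.41-fold). The same gene also held 3 comparison regions and a saline-only region of the converse rule. That region, at chr11:68341704-68342392, had no peak in any cKO list. Slit1 had folds of 3.29, 3.64 and 4.23, 28 bp in all 3 lists and no cKO peak.

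Of 26 cocaine targets and monoamine receptors, only the ionotropic serotonin receptor gene Htr3a (3.85%) had a cocaine-only region, with 16 bp covered in all 3 lists, and 15 (57.7%) had a comparison region. Its folds were 2.77, 3.39 and 3.40, and cKO saline replicate 1 had a peak. Of 18 immediate early genes, the AP-1 subunit gene Fosl2 (5.56%) had one, at chr5:32136839-32137238 by the gene end, and 10 (55.6%) had a comparison region. Its folds were 3.22, 3.57 and 3.77, and only the cKO replicates numbered 1 had peaks among the cKO lists, at 3.45-fold and 7.42-fold. Of 13 markers of glia and vessels, Mbp (7.69%), which encodes myelin basic protein, had a region at a gene end with folds of 3.13, 3.29 and 3.51, and 3 (23.1%) had a comparison region. Both cKO cocaine lists (4.41-fold and 3.26-fold) and cKO saline replicate 1 (9.68-fold) had a peak there. Each list's share rests on 0 to 5 genes, and in all lists but that of the patterning factors 1 gene is enough to pass the 1.50% of all protein-coding genes, so nothing is read from the shares. Genes of these lists were chosen for their roles and with results of these data known, and no test was made of a list.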

How the data were processed

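According to the submitters' processing notes and the methods, adapters were removed by Cutadapt (version 3), Bowtie2 (version 2.3.4.1) aligned the reads to mm10, and MACS2 (version 2.1.1.20160309.3) called broad peaks against input in each library, replicates not being pooled. The authors deposited 11 lists, which give peak starts and ends, a whole-number score (10 times the −log10 q, decimals dropped), the fold enrichment over input as a linear ratio, and the −log10 p and −log10 q. The score was not used as a measure. No column of per-sample values was left unused for lack of a sample. The lists hold no counts and the methods state only a minimum depth, so the depth of each library is unknown here and was not corrected for.

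All peaks on chromosomes 1 to 19 were used, as the rule gives them. Regions were merged and compared with Python (version 3.11.15), numpy (version 2.4.6), pandas (version 2.3.3) and scipy (version 1.17.1), and plotted with matplotlib (version 3.10.9). A region was present in a list when at least 1 bp lay under a peak. The fold of a region in a list was the highest of its overlapping peaks. Genes came from a RefSeq table of GRCm38.p6, which has the coordinates of mm10 but no strand and no exons. "Near a gene" means within the gene or 5 kb of it. No genome sequence was used here.

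The library was the replicate. The labels describe replicates as independent pools of thalami, and p-values measure the spread between these pools. Comparisons of means used two-sided exact permutation tests with Benjamini-Hochberg adjustment over 3 tests. The functions were tested on simulated data. Regions were named by a rule: the 8 with the most bases in all 3 WT cocaine lists, the 8 of highest mean fold, 5 with peaks in both cKO cocaine and no cKO saline list, 5 with peaks in all 5 cKO lists, the 8 genes with the most regions, the list genes with a region, and the 5 just inside and outside the rule. A gene that the rule names is not reported here. The members and the gene lists were chosen with earlier results of these data known. Alternatives were peaks with q at most 0.05 or 0.01, equal numbers of peaks, a longer shared stretch, a 1 kb margin, stretches in place of regions, chromosomes X and Y, a wider cKO overlap, regions under 1 kb, protein-coding windows, a replicate block and the omission of each library.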

Additional observations from a re-analysis of the deposited data

How the results depend on the processing

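The count of 472 was 389 with q at most 0.05 and 476 with chromosomes X and Y, but 104 with q at most 0.01, 140 with equal numbers of peaks, 310 with at least 100 bases in all 3 lists, 267 with no saline peak within 1 kb and 1176 when each stretch of bases in all 3 lists was counted by itself. Leaving out 1 WT list gave 534 to 2265: 1528, 1537 and 2265 without cocaine replicates 1, 2 and 3, and 935 without saline replicate 1. The rule then asks for fewer lists. The 389 and 104 regions overlapped 296 and 8 of the 472, so that q at most 0.01 chose mostly other regions (96 of 104). The converse count of 31 became 19 (q at most 0.05), 3 (q at most 0.01), 13 (100 bases), 15 (1 kb margin) and 95 (stretches), and 38 to 542 without 1 list, reaching 542 and 303 without saline replicates 2 and 3, 124 without saline replicate 1, and 69 and 52 without cocaine replicates 1 and 2. Taken over the regions chosen in each setting, the gene-end share of 48.3% became 73.1% (q at most 0.01) and 61.4% (equal numbers of peaks). It was 32.4% with protein-coding genes and 42.2 to 52.1% without 1 list.

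The difference in presence between cKO cocaine and cKO saline reversed only with equal numbers of peaks, to -3.57 points, and its log2 ratio to -0.79; the cause was not tested. Without 1 list they ran from 6.04 to 23.9 points and from 0.13 to 0.93. No setting passed 0.05, which none of these designs could. Presence below the comparison regions kept its sign in all 21 alternatives, at -42.3 to -36.1 points without 1 list and -43.1 to -18.3 otherwise. Deviations of same-numbered samples over merged regions were weakly correlated at most (r 2.19e-05, 0.0638 and -0.0186 in WT, 0.0387 and 0.0821 in cKO). Of 3 WT cocaine libraries, 1 correlated best with the saline library of its own number. The cKO replicates numbered 1 still stood apart together in number of peaks and highest fold. With a replicate block on numbers 1 and 2, the difference was 6.04 points (exact p = 1.0) and 0.13 in log2 ratio (exact p = 1.0). A window at the transcription start alone was not run, as the gene table has no strand.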
